A study of Mus musculus with 24 samples.

Results

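The expression of 9 genes of leukocyte adhesion was followed through RNA sequencing of mouse calf muscle: the endothelial selectins Sele and Selp, the integrin ligands Icam1, Icam2 and Vcam1, the selectin ligand Selplg, and the integrin chains Itgal, Itgb2 and Itga4. The 9 genes were chosen by name, as the selectins, the immunoglobulin-family ligands and the leukocyte counter-receptors of cell capture, and all 9 were found among the 54532 genes of the deposited tables. The 24 samples were left gastrocnemius of wild-type C57/BL6 mice, in 6 groups of 4 that combined both sexes with 3 conditions. Sedentary controls received 2 injections of saline at pH 7.2, each of 20 µl, with 5 days between them. In sedentary pain the 2 injections, equal in volume and timing, had a pH of 5.0, and the muscle was made to contract by electrical stimulation for 6 min immediately before the second injection. Active pain animals had running wheels for 8 weeks and then went through the same pain procedure. Every sample is labelled 24 h. Controls had neither acid nor contraction, and no group ran without pain, so acid, contraction and their combination cannot be told apart, and neither can running alone. The study's design text treats females and males separately and then sets the sexes against each other.

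Leukocytes leave the blood in steps. Selectins on activated endothelium slow the passing cell by binding sugar-decorated ligands such as P-selectin glycoprotein ligand, the product of Selplg. Integrins on the leukocyte, among them LFA-1 (Itgal with Itgb2) and VLA-4 (Itga4 with Itgb1), then hold the cell on ICAM and VCAM ligands of the vessel wall before it crosses. In skeletal muscle the same molecules serve the entry of neutrophils, monocytes and lymphocytes after injury, and VCAM1 and the Itga4 chain are also made by cells of the muscle lineage.

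In GENCODE M21 (GRCm38, a build named in the submitters' processing notes), both selectin genes lie on chromosome 1, Sele at chr1:164048234-164057677 and Selp at chr1:164115264-164150026. Icam1 lies at chr9:21015985-21028817, Icam2 at chr11:106377656-106388075 and Vcam1 at chr3:116109949-116129688. Selplg lies at chr5:113818536-113832644, Itgal at chr7:127296260-127335138, Itgb2 at chr10:77530252-77565708 and Itga4 at chr2:79255426-79333123. All 9 are protein-coding genes. Exons of Selp (Gm16548 and Gm16587), Icam1 (Gm47079), Vcam1 (Gm43109) and Itga4 (Cerkl) overlap a gene on the opposite strand, and because the use of strand in counting is not given in the sources used here, reads of such pairs cannot be told apart. The promoter table of RefSeq (GRCm38.p6) matched 4 of the 9 genes: Sele, Selp, Icam1 and Itga4. The promoters of Sele and Icam1 are shown because every female sedentary pain library had more of each than every female control, and both hold a match to GGANNTTCC, the letters of an NF-κB type site. Each line gives the 250 bases before the RefSeq start, plus strand, 5′ to 3′, with the match in capitals, for Sele at chr1:164047984-164048233 and for Icam1 at chr9:21015690-21015939.
Sele: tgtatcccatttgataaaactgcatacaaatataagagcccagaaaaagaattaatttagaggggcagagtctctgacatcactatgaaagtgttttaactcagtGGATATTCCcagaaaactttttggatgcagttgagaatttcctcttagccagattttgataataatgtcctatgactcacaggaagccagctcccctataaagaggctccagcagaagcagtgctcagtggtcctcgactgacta
Icam1: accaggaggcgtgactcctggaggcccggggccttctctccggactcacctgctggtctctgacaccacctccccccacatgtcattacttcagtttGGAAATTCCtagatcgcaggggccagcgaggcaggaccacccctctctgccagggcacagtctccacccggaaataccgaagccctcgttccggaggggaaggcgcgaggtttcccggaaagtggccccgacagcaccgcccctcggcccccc
Counted back from the start, the match lay at -145 to -137 in Sele and at -153 to -145 in Icam1, where it was read on both strands at the same site. Selp and Itga4 held no match in their 250 bases. The same letters occurred on either strand in 3.59% of 32851 promoters. TGANTCA, an AP-1 type site that reads the same on both strands, occurred in Sele at -73 to -67 and in Selp at -139 to -133, and in 6.75% of promoters. TATAAA occurred in Sele at -49 to -44 and in 12.4% of promoters. None of these matches overlapped another. The 3 motifs were chosen after the sequences had been seen, and a match describes letters only.

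Values are raw read counts per gene, shown here as CPM, the counts relative to library size, scaled by the trimmed mean of M-values, and tested with edgeR's quasi-likelihood test within each sex. Adjusted p-values are by Benjamini-Hochberg over all genes tested, 14511 in females and 14404 in males, with a threshold of 0.05. Library totals ran from 17612139 to 34039699 counts. The 8 markers of skeletal muscle fibres summed to 100980 to 230147 CPM over the 24 libraries, in keeping with the tissue label. The lowest were female sedentary pain replicates 4 and 3 (100980 and 109527 CPM), and the next library had 134394 CPM. Fewer cells of a type and less RNA per cell cannot be told apart in whole muscle. Some libraries stood apart from their group. Female sedentary pain replicates 3 and 4 had summed T and NK cell markers of 73.5 and 125 CPM, against 5.86 and 7.24 CPM in replicates 1 and 2 and at most 5.11 CPM in the 20 libraries of the other groups. Monocyte and macrophage markers summed to 4011 and 5626 CPM in replicates 3 and 4 and to at most 790 CPM in the other 22 libraries. Whether these 2 muscles were dissected like the others is not given in the sources used here, and the part of these cells in the values of Icam1, Vcam1, Selplg, Itgal, Itgb2 and Itga4 was not tested. Neutrophil markers summed to 324 CPM in male sedentary pain replicate 1 and to 286 CPM in female sedentary pain replicate 2, while the other 3 male sedentary pain libraries had 3.31 to 3.49 CPM. The female comparisons with calls, the levels per kb, the marker-relative differences and the pathway lists are given with and without female sedentary pain replicates 3 and 4, a choice made after seeing the data. The labels number the samples of a group but do not say that each came from its own animal, so p-values measure the spread between these samples.

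In females, 7 of the 8 genes that could be tested rose in sedentary pain against controls, beside 33.5% of all genes called in that comparison (19.6% higher). Itgb2, Itgal and Selplg rose most, by more than 4 on the log2 scale, and the leukocyte genes had a median log2 change of 4.63, against 1.60 for the 4 endothelial genes and -0.02 over all genes. In 7 of the 8 genes every female sedentary pain library was above every control, as for 26.3% of all genes (15.3% in that direction). DESeq2 called all 8, beside 39.8% of all genes. Without female sedentary pain replicates 3 and 4, edgeR called 5 of 8, beside 9.59% of all genes, and the medians were 2.71 for the leukocyte and 0.87 for the endothelial genes. With 1 surrogate variable, a covariate estimated from the counts, edgeR called Selplg alone (1 of 8), and with replicates 1 and 2 of every group only, a split chosen after seeing the data, it called 2, Selplg and Itgb2. The share of all genes called in these 2 fits is not given here. No gene of the 8 passed the test in males, and in females that had run the levels lay between control and sedentary pain for each gene by the mean.

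**Figure D1:**
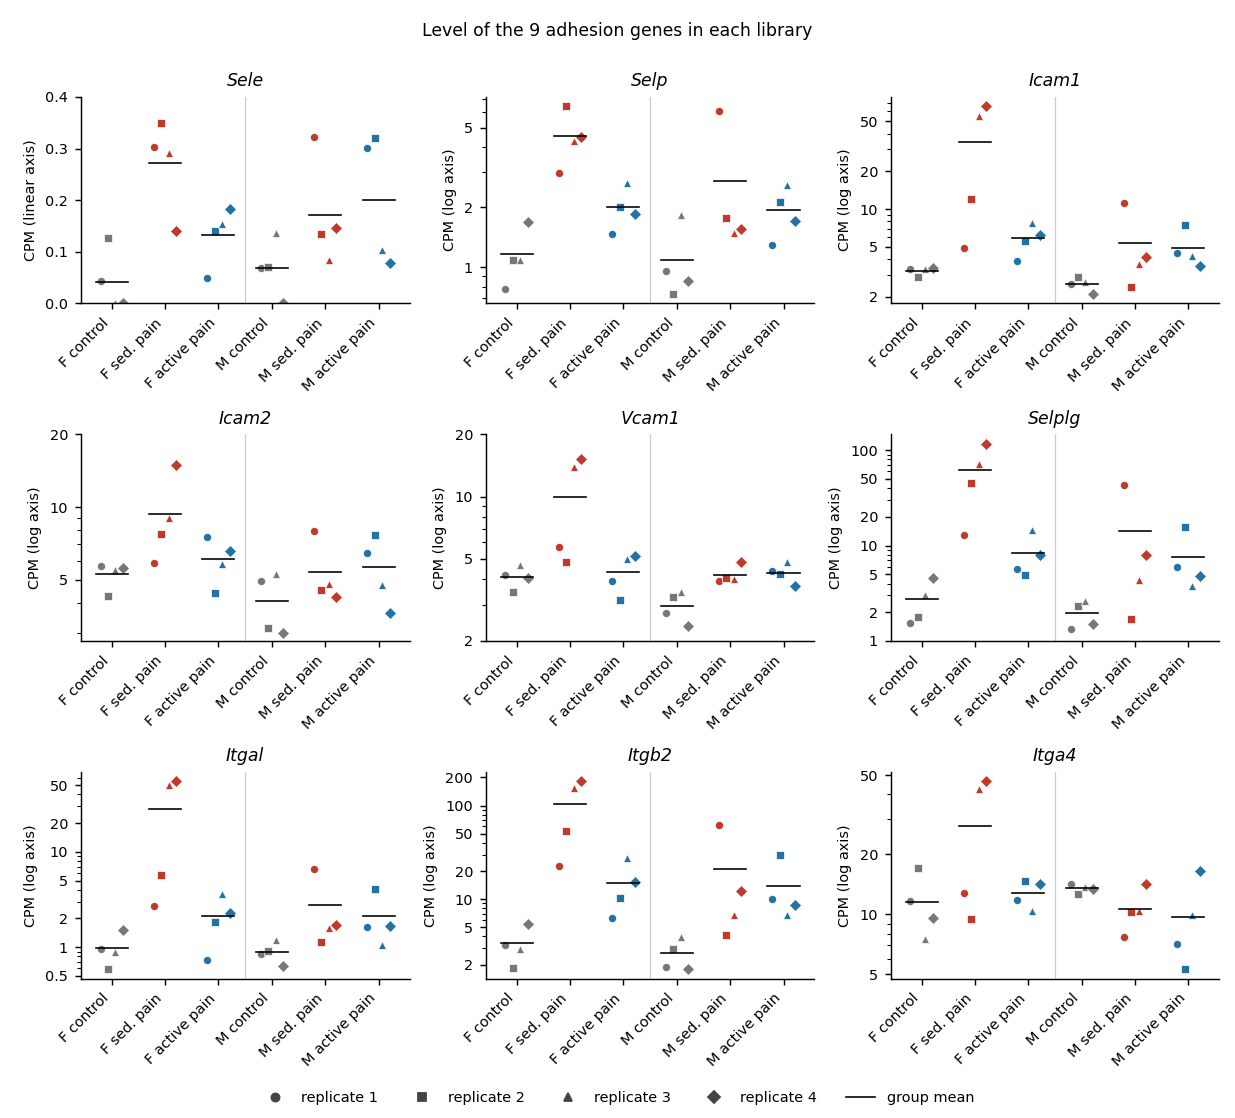
Level of the 9 genes in each library, in CPM, by group (F female, M male, sed. sedentary). Each marker is 1 library, its shape gives the replicate number and the line is the group mean. The axis is linear for Sele and logarithmic for the others. Female sedentary pain replicates 3 and 4 (triangle and diamond) lie highest of all 24 libraries for Icam1, Vcam1, Selplg, Itgal, Itgb2 and Itga4.

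Sele encodes E-selectin, made by endothelium that has been activated by cytokines. It was close to the limit of detection, with 92 counts in all 24 libraries, and did not pass the filter on low counts in either sex. Female controls had 0.0433, 0.126, 0 and 0 CPM, female sedentary pain 0.302, 0.350, 0.292 and 0.141 CPM, and female active pain 0.0490, 0.141, 0.154 and 0.182 CPM. Every female sedentary pain library lay above every control, and the active pain libraries overlapped both. Summed over a group, Sele had 4 counts in female controls, 27 in sedentary pain and 15 in active pain. Relative to the library totals that is 6.91 times the control value in sedentary pain (95% interval 2.41 to 27.2) and 3.67 times in active pain (1.17 to 15.2). In males the controls had 8 counts (0 to 4 per library), sedentary pain 18 and active pain 20, or 2.53 (1.05 to 6.74) and 2.90 (1.22 to 7.61) times the control value. These exact binomial intervals cover counting error only, not the spread between samples. The 2 female controls and the 1 male control without a read allow up to 3 counts each. With no filter on low counts, edgeR's fit of 26069 genes gave Sele a log2 change of 2.59 ± 0.82 (SE, n = 4 against 4) in female sedentary pain, with an adjusted p of 0.0416, and no other comparison of Sele passed.

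Selp encodes P-selectin, which endothelial cells and platelets keep in granules and bring to their surface within minutes of activation. Its level was 0.780, 1.09, 1.09 and 1.68 CPM in female controls, 2.99, 6.42, 4.28 and 4.48 CPM in sedentary pain, and 1.47, 2.01, 2.66 and 1.85 CPM in active pain. All 4 sedentary pain libraries stood above all controls and all active pain libraries. The rise in sedentary pain was 1.93 ± 0.30 on the log2 scale (SE, n = 4 against 4, adjusted p = 0.00260), and 1.98 without replicates 3 and 4 (adjusted p = 0.0162). Male controls had 0.955, 0.734, 1.83 and 0.849 CPM, sedentary pain 6.05, 1.77, 1.48 and 1.56 CPM, and active pain 1.29, 2.12, 2.60 and 1.70 CPM. In males the highest library was sedentary pain replicate 1, and the other 3 of that group lay below the highest control. Summed platelet markers were also highest in that library, at 86.5 CPM, followed by female sedentary pain replicate 2 at 69.6 CPM, the female library with the most Selp. Pf4, 1 of the 8 markers, gave 75.9 and 59.8 CPM of these sums. In male sedentary pain 3 of the 8 had no read in any library. The other libraries had 3.41 to 35.9 CPM of platelet markers, and their part in the Selp values was not tested.

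Icam1 encodes the ligand of LFA-1 and Mac-1 that cytokines induce on endothelium, and that many other cells, leukocytes included, also make. Female controls lay close together at 3.34, 2.86, 3.32 and 3.42 CPM. Sedentary pain gave 4.88, 12.1, 55.0 and 65.9 CPM, and active pain 3.87, 5.54, 7.74 and 6.26 CPM. Both pain groups lay wholly above the controls, and replicates 3 and 4 of sedentary pain were above every other library by more than 4-fold. The rise in female sedentary pain was 3.39 ± 0.66 (log2 ± SE, adjusted p = 0.00486). Without replicates 3 and 4 it was 1.37 with an adjusted p of 0.0361. In males, controls had 2.52, 2.87, 2.61 and 2.11 CPM, sedentary pain 11.3, 2.41, 3.67 and 4.18 CPM, and active pain 4.43, 7.48, 4.21 and 3.52 CPM. Male active pain did not overlap controls, whereas 1 male sedentary pain library fell within them.

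Icam2 encodes a ligand that resting endothelium carries at a steady level. Female controls had 5.72, 4.29, 5.46 and 5.59 CPM, sedentary pain 5.86, 7.76, 9.005 and 14.9 CPM, and active pain 7.49, 4.41, 5.81 and 6.59 CPM. The lowest sedentary pain library was only just above the highest control, and active pain overlapped both. Its rise of 0.82 ± 0.26 (log2 ± SE, adjusted p = 0.0355) was the smallest of the 7. The call was lost without female sedentary pain replicate 4 (0.52, adjusted p = 0.111) or without any 1 of the 4 controls (0.74 to 0.87), and without replicates 3 and 4 the change was 0.35 (adjusted p = 0.264). Male controls had 4.95, 3.15, 5.26 and 3.02 CPM, sedentary pain 7.99, 4.52, 4.81 and 4.22 CPM, and active pain 6.46, 7.68, 4.75 and 3.64 CPM, and the 3 male groups overlapped.

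Vcam1 encodes the ligand of VLA-4. Female controls had 4.16, 3.45, 4.64 and 4.03 CPM, sedentary pain 5.71, 4.84, 13.9 and 15.1 CPM, and active pain 3.92, 3.14, 4.97 and 5.17 CPM. Replicates 3 and 4 of sedentary pain held most of the rise, replicates 1 and 2 were just above the controls, and active pain lay around the control level. The rise was 1.27 ± 0.35 (log2 ± SE, adjusted p = 0.0189). The call was lost without sedentary pain replicate 4 (1.01, adjusted p = 0.0595) or without control replicate 2 (1.21, adjusted p = 0.0526), and without replicates 3 and 4 together the change was 0.36 (adjusted p = 0.265). Males had 2.73, 3.25, 3.46 and 2.36 CPM in controls, 3.92, 4.01, 4.01 and 4.84 CPM in sedentary pain, and 4.35, 4.20, 4.82 and 3.68 CPM in active pain. Both male pain groups lay wholly above the male controls with little spread, at 0.53 ± 0.16 and 0.54 ± 0.16 on the log2 scale, and neither passed (adjusted p = 0.324 and 0.478).

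Selplg is the selectin ligand of nearly all circulating leukocytes. Female controls had 1.56, 1.77, 3.01 and 4.61 CPM, sedentary pain 12.8, 44.8, 71.7 and 117 CPM, and active pain 5.63, 4.94, 14.7 and 7.90 CPM. The 3 female groups ran upward from control through active pain to sedentary pain, with overlap only between the pain groups. The rise in sedentary pain was 4.46 ± 0.66 (log2 ± SE, adjusted p = 0.00260), and 3.36 without replicates 3 and 4 (adjusted p = 0.0143). Male controls had 1.33, 2.34, 2.65 and 1.51 CPM, sedentary pain 43.2, 1.71, 4.31 and 8.00 CPM, and active pain 6.03, 15.8, 3.73 and 4.83 CPM. In male sedentary pain, replicate 1 stood far above the others and replicate 2 was within the controls, while all 4 male active pain libraries were above all controls.

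Itgb2 encodes the β2 chain shared by LFA-1, Mac-1 and the other leukocyte integrins. Female controls had 3.25, 1.85, 2.93 and 5.47 CPM, sedentary pain 22.5, 53.1, 154 and 181 CPM, and active pain 6.27, 10.3, 27.3 and 15.3 CPM. Controls were below every pain library, and only active pain replicate 3 reached the range of sedentary pain. The rise in sedentary pain was 4.90 ± 0.71 (log2 ± SE, adjusted p = 0.00260), the largest of the 8 genes, and 3.46 without replicates 3 and 4 (adjusted p = 0.0132). In males, controls had 1.88, 2.94, 3.97 and 1.79 CPM, sedentary pain 61.3, 4.15, 6.71 and 12.2 CPM, and active pain 10.03, 29.8, 6.84 and 8.70 CPM. Both male pain groups lay above all controls, each with 1 library several-fold above the rest.

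Itgal encodes the α chain of LFA-1, found on lymphocytes and, at lower levels, on myeloid cells. Female controls had 0.953, 0.589, 0.898 and 1.497 CPM, sedentary pain 2.72, 5.72, 50.4 and 54.7 CPM, and active pain 0.735, 1.84, 3.58 and 2.31 CPM. Sedentary pain replicates 3 and 4 were more than 8-fold above replicates 1 and 2, which were still above all controls. The rise was 4.81 ± 0.92 (log2 ± SE, adjusted p = 0.00458). Without replicates 3 and 4 it was 2.06 (adjusted p = 0.0409). Male controls had 0.853, 0.909, 1.19 and 0.629 CPM, sedentary pain 6.66, 1.14, 1.60 and 1.71 CPM, and active pain 1.64, 4.12, 1.06 and 1.66 CPM. Male sedentary pain replicate 1 was again the highest male library, and 1 library of each male pain group was within the controls.

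Itga4 encodes the α chain of VLA-4 and of the gut-homing integrin with Itgb7. It was the exception among the leukocyte genes: female controls already had 11.7, 17.2, 7.53 and 9.65 CPM, and sedentary pain had 12.8, 9.51, 42.4 and 46.5 CPM. Active pain had 11.8, 14.8, 10.4 and 14.2 CPM. Replicates 1 and 2 of sedentary pain lay within the controls, and replicates 3 and 4 were more than 2-fold above every other library. The change of 1.26 ± 0.46 (log2 ± SE) did not pass, with an adjusted p of 0.0526. Without female sedentary pain replicate 1 or replicate 2 the change passed (1.51 and 1.55, adjusted p = 0.0179 and 0.0185), and without replicates 3 and 4 it was -0.055 (adjusted p = 0.910). Male controls had 14.3, 12.7, 13.8 and 13.5 CPM, sedentary pain 7.75, 10.2, 10.4 and 14.3 CPM, and active pain 7.15, 5.32, 9.95 and 16.6 CPM. In each male pain group 3 libraries lay below all controls and the fourth above them, in sedentary pain by a small margin, at log2 changes of -0.32 ± 0.30 and -0.47 ± 0.30 (adjusted p = 0.654 and 0.634). Satellite cell markers, for the muscle stem cells, summed to 34.6 to 50.5 CPM over all 24 libraries, and the sum in female sedentary pain overlapped that in controls.

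Running before the pain procedure was examined in females by setting active pain against both other groups, which share libraries between the comparisons. Against controls, edgeR called 0 of the 8 genes, and 0% of all genes. At an unadjusted p under 0.05 there were 3, Itgb2, Selplg and Selp (7.03% of all genes), and DESeq2 called 1, Itgb2 (0.862% of all genes). Itgb2 was higher by 2.12 ± 0.64, Selplg by 1.59 ± 0.60 and Selp by 0.77 ± 0.30 (log2 ± SE, adjusted p = 0.565, 0.624 and 0.628). Icam1, Selplg and Itgb2 did not overlap controls, 3 of 8 beside 5.44% of all genes. The median log2 change was 0.82 over the 8 genes and 0.0024 over all genes.

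Against sedentary pain, 6 of the 8 genes fell in female active pain, beside 11.9% of all genes called (9.41% lower). Itgal fell by 3.71 ± 0.86, Selplg by 2.87 ± 0.61, Itgb2 by 2.77 ± 0.64 and Icam1 by 2.54 ± 0.63 on the log2 scale. Vcam1 fell by 1.19 ± 0.34 and Selp by 1.16 ± 0.29, with adjusted p-values of the 6 between 0.0328 and 0.0453. Without sedentary pain replicates 3 and 4 the differences were -0.96 for Itgal, -1.78 for Selplg, -1.33 for Itgb2, -0.52 for Icam1, -0.29 for Vcam1 and -1.21 for Selp. In that fit edgeR called 0 of 8, beside 0% of all genes (3 at an unadjusted p under 0.05, adjusted p of the 6 from 0.280 to 0.526). Of these 6, Selp was at a value close to that over all libraries and the others were closer to 0. Icam2 had -0.61 ± 0.26 and Itga4 -1.10 ± 0.46, and neither passed (adjusted p = 0.133 and 0.121). Without replicates 3 and 4 they were at -0.16 and 0.20. The leukocyte markers fell as well, 10 of 10 with a median of -2.84, as did 9 of 11 monocyte and macrophage markers (-2.66), beside a median of -2.82 over the 4 leukocyte members, and their part in these changes was not tested. Selp alone did not overlap between the groups, 1 of 8 beside 11.8% of all genes, and DESeq2 also called 6 (20.8%). The count rested on single libraries, in fits whose share of all genes called is not given here. It was 0 of 8 without female active pain replicate 1, 2 or 4, and 0 of 8 without female sedentary pain replicate 3 or 4. With female sedentary pain replicate 1 left out, all 8 passed. In edgeR it was also 0 of 9 with no filter on low counts (8 at an unadjusted p under 0.05), 0 of 8 with only these 2 groups in the fit (6 unadjusted) and 0 of 8 with 1 surrogate variable (1 unadjusted), where Icam1 was at -0.30, Selplg at -0.75, Itgb2 at -0.76 and Itgal at -0.82. In the fit of all female libraries 32.2% of all genes had an unadjusted p under 0.05 in this comparison. The shares in the alternative fits are not given here, so their counts cannot be read as particular to these genes.

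**Figure D2:**
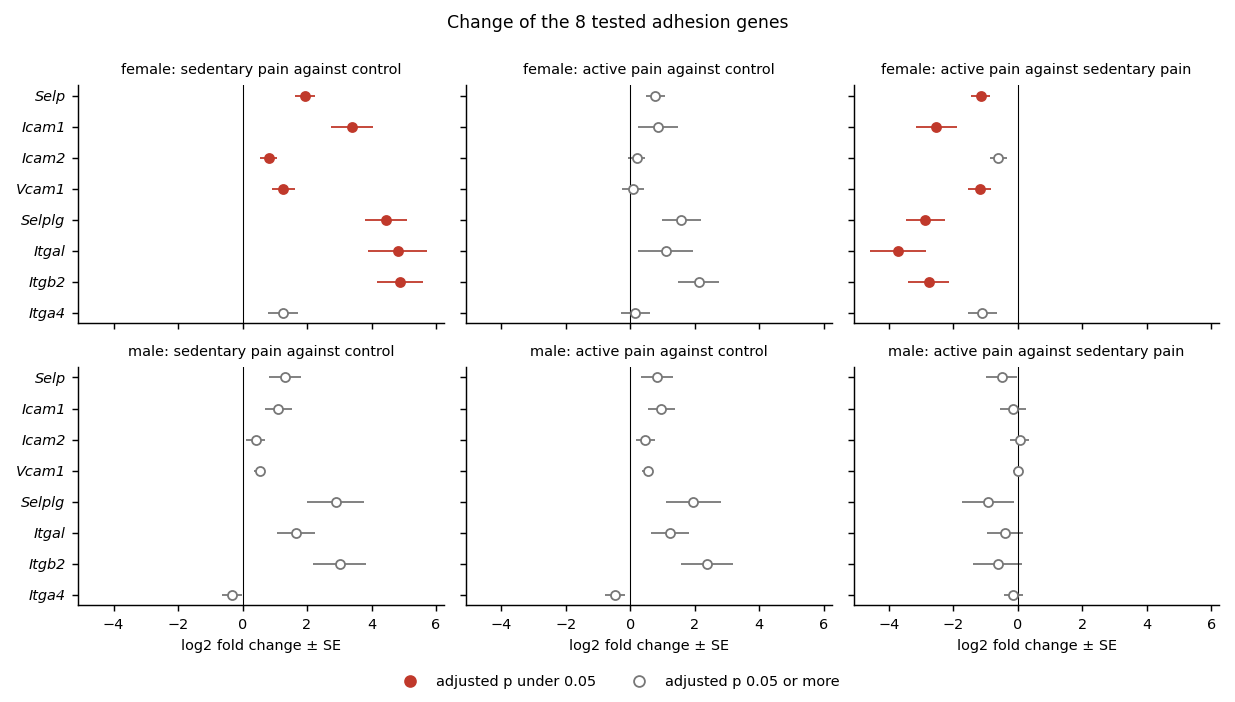
Log2 fold change ± SE of the 8 tested genes in the 6 comparisons within a sex, from edgeR's quasi-likelihood fit with 4 libraries per group. Filled red points passed an adjusted p of 0.05 and open points did not. Filled points are found for 7 genes in female sedentary pain against control and for 6 in female active pain against sedentary pain, and in no male panel.

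In males, edgeR called 0 of the 8 genes and 0% of all genes in each of the 3 comparisons. In sedentary pain against controls 6 genes had an unadjusted p under 0.05 (8.84% of all genes), and DESeq2 called 2, Selplg and Itgb2 (1.9%). Itgb2 was higher by 3.01 ± 0.83, Selplg by 2.88 ± 0.88, Itgal by 1.65 ± 0.59, Selp by 1.33 ± 0.49 and Icam1 by 1.11 ± 0.42 (log2 ± SE, adjusted p from 0.298 to 0.465). Vcam1 and Itgb2 did not overlap controls, 2 of 8 beside 8.07% of all genes. Without male sedentary pain replicate 1 and male active pain replicate 2, Itgb2 was at 1.56, Selplg at 1.27, Itgal at 0.74, Selp at 0.57, Icam1 at 0.45 and Vcam1 at 0.56. In male active pain against controls 4 genes had an unadjusted p under 0.05 (7.25%), DESeq2 called 0 (0.892%), and Icam1, Vcam1, Selplg and Itgb2 did not overlap (4 of 8, beside 10.4%). Itgb2 was higher there by 2.39 ± 0.81 and Selplg by 1.96 ± 0.86 (adjusted p = 0.534 and 0.634). Without male active pain replicate 2 they were at 1.70 and 1.32 (adjusted p = 0.979 for each). Between active and sedentary pain in males the 8 changes ran from -0.93 to 0.05, with 0 at an unadjusted p under 0.05 (0.84% of all genes) and 0 by DESeq2 (0%).

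Whether the sexes differed was tested in 1 fit of all 24 libraries. For sedentary pain against control, edgeR called a difference between the female and the male change for 0 of 8 genes and 0% of all genes. The female change was the larger for each of the 8, as for 49.7% of all genes, by 0.44 to 3.21 on the log2 scale. Itgal (3.21), Icam1 (2.33) and Itga4 (1.62) were the 3 with an unadjusted p under 0.05, beside 9.57% of all genes, and DESeq2 called 0 (0.0994%). The smallest adjusted p was 0.432. The female change was the larger for 6 of the 8 when female sedentary pain replicates 3 and 4 were left out. The differences then ran from -0.15 (Vcam1) to 0.68 (Selp), with Icam2 at -0.043, Icam1 at 0.29 and Itgal at 0.44, and edgeR had 0 at an unadjusted p under 0.05. With replicates 3 and 4 of every group only, edgeR called 5 of 8. That subset holds the 2 female sedentary pain libraries highest in T, NK and macrophage markers. The share of all genes called in that fit is not given here, so the count cannot be read as particular to these genes. For active against sedentary pain the female change was lower by 0.69 to 3.35, with 4 genes at an unadjusted p under 0.05, Vcam1, Itgal, Icam1 and Itgb2 (14.7% of all genes), 0 of 8 by edgeR (0%, smallest adjusted p = 0.228) and 0 by DESeq2 (0.936%). It was lower for 7 of the 8 without female sedentary pain replicates 3 and 4, where Itga4 turned to 0.33, and with replicates 1 and 2 only Itga4 was at 0.81. The share of all genes called is not given here for the next 2 fits. The edgeR count rose to 5 without male sedentary pain replicate 1 and to 3 without female sedentary pain replicate 1. For active pain against control it was 0 of 8 (0%), with 0 at an unadjusted p under 0.05 (2.03%) and 0 by DESeq2 (0.0199%). Male and female controls differed in 0 of 8 genes by edgeR, beside 2.83% of all genes, with 0 at an unadjusted p under 0.05 (14.9%), 0 by DESeq2 (4.77%), and differences from -0.50 to 0.24.

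Levels of different genes were compared as CPM per kb of exon. In controls Icam2 was the most abundant, at 2.77 ± 0.35 CPM per kb in females and 2.15 ± 0.62 in males (SD, n = 4), and its values did not overlap those of the next gene, Itgb2 in females and Itga4 in males. Itgb2, Itga4, Icam1, Selplg and Vcam1 followed in female controls from 1.11 to 0.459 CPM per kb, each overlapping its neighbour in that order. Sele was lowest in all 6 groups and never overlapped the gene above it. In the 4 pain groups Itgb2 came first, with 33.6 ± 25.1 CPM per kb in sedentary and 4.85 ± 2.99 in active females, and 6.91 ± 8.85 in sedentary and 4.53 ± 3.51 in active males. Its values overlapped those of the second gene in each of them. The male sedentary mean rested on replicate 1, at 20.1 CPM per kb. Without it Itgb2 had 2.52 and Icam2 2.37 CPM per kb, and Icam2 was above Itgb2 in replicates 2 and 3 (2.37 against 1.36 and 2.53 against 2.20). The male active mean rested on replicate 2, at 9.76 CPM per kb. Without it Itgb2 had 2.79 and Icam2 2.60 CPM per kb, and Icam2 was above Itgb2 in replicates 1 and 3. Itgal moved from rank 8 in female controls, at 0.1498 ± 0.0575, to rank 5 in female sedentary pain, at 4.32 ± 4.26 CPM per kb. That mean was carried by replicates 3 and 4, with 7.67 and 8.32 CPM per kb and rank 4 in each. Replicates 1 and 2 had 0.414 and 0.871 CPM per kb, at rank 8 and rank 6. Over replicates 1 and 2 alone Itgb2 was still first, at 12.4 CPM per kb, and Itgal was at rank 7, at 0.643.

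The members were also set against markers of the cells that carry them, as log2 CPM (prior count 2) minus the mean log2 CPM of 10 endothelial or 10 leukocyte markers. The endothelial markers summed to 251 to 294 CPM in female controls and 219 to 241 CPM in female sedentary pain, and the leukocyte markers to 33.8 to 73.3 CPM and 218 to 2710 CPM. Relative to endothelial markers, female sedentary pain exceeded control by 3.01 for Icam1, 2.19 for Selp, 1.94 for Sele, 1.39 for Vcam1 and 1.04 for Icam2. In each of these 5 genes all 4 sedentary pain libraries were above all 4 controls, as for 27.6% of all genes on this scale. The endothelial markers themselves had a median log2 change of -0.32, with 2 of 10 called lower, which raises every gene on this scale. Without sedentary pain replicates 3 and 4 the differences were 1.48 for Icam1, 2.14 for Selp, 2.14 for Sele, 0.61 for Vcam1 and 0.61 for Icam2. Over 13 alternatives the Sele difference ran from 1.71 to 3.02, and 2 of the 4 female controls had no Sele read. Leukocytes also make Icam1, platelets Selp and cells of the muscle lineage Vcam1. The part of these and other cells in the differences of the 5 genes was not tested. In males Selp was higher by 1.04 and Vcam1 by 0.48, again with no overlap (2 of 5, beside 2.37% of all genes). Without male sedentary pain replicate 1 Selp was higher by 0.58 and Vcam1 by 0.51.

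Relative to leukocyte markers, Selplg differed by 0.08 between female sedentary pain and control and Itgb2 by 0.45, both with overlapping libraries. Itgal differed by -0.26 in females and by -0.81 in males, where all 4 sedentary pain libraries were below all controls. Without female sedentary pain replicates 3 and 4 Itgal was at -0.93, with both remaining libraries below all controls, Selplg at 0.30 and Itgb2 at 0.51. Itga4 was lower relative to the leukocyte markers, by 3.10 in females and 2.42 in males with sedentary pain, with no overlap in either sex. On this scale 95.4% of all genes lay below the controls without overlap in females and 83.9% in males, so the position of Itga4, and of Itgal in males, was that of most genes. Selplg and Itgb2 did not share it in either sex. In females Itgal did not share it over the 4 libraries, but did in replicates 1 and 2. Itga4 was at -2.92 in females without replicates 3 and 4, and at -1.53 in males without male sedentary pain replicate 1. Over the 36 tests of this kind, 0 passed after adjustment. Groups without overlap reached an exact two-sided permutation p of 0.0286, the smallest that 4 against 4 samples can give, and an adjusted p of 0.0643.

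**Figure D3:**
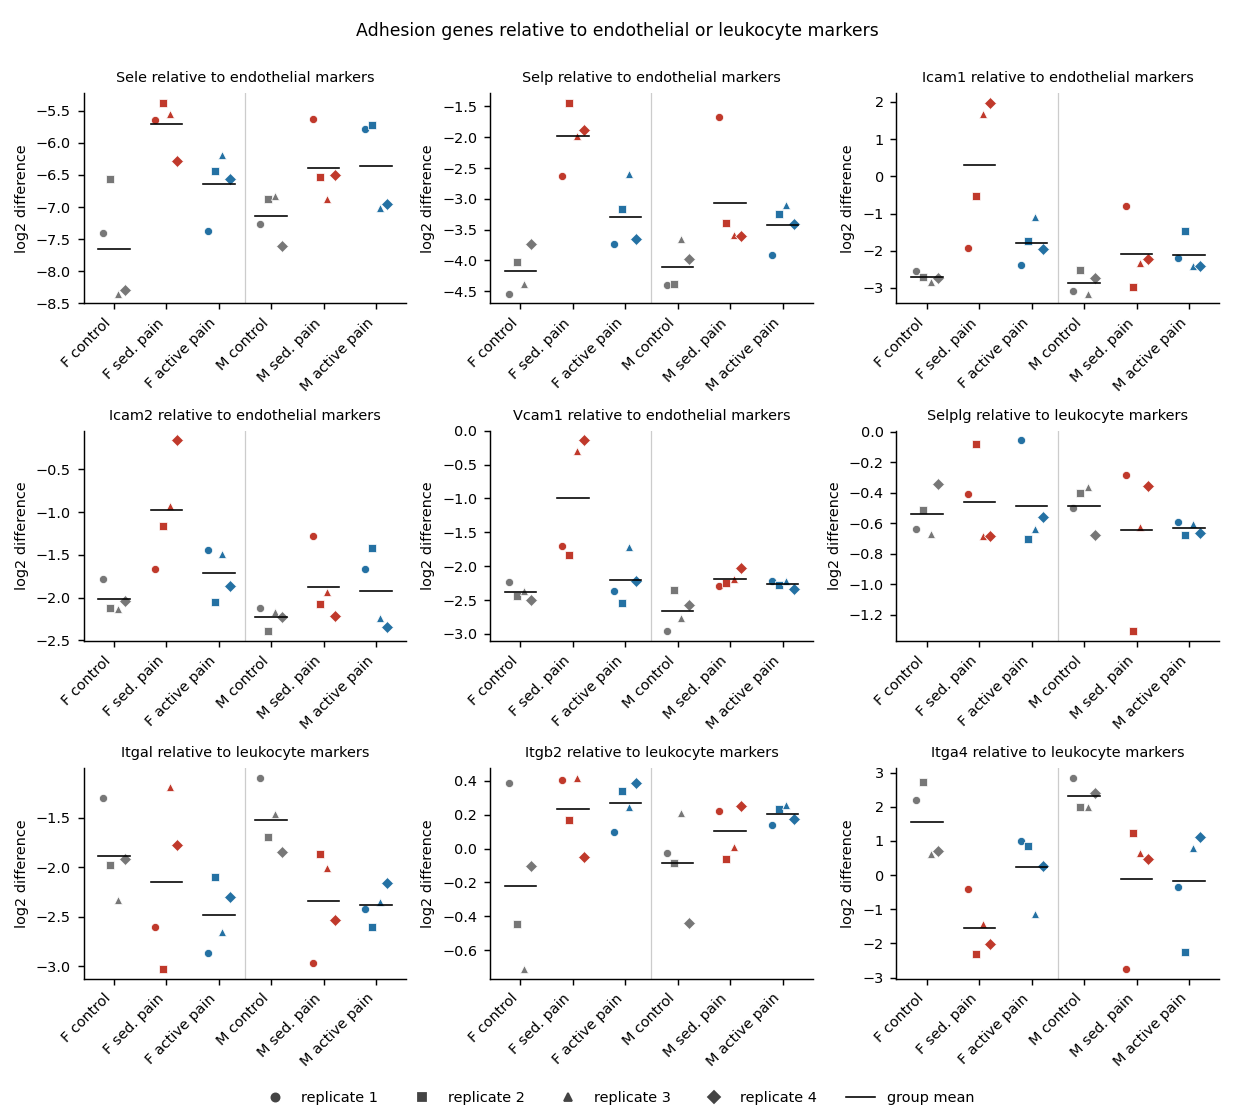
Each gene relative to endothelial markers (Sele, Selp, Icam1, Icam2, Vcam1) or leukocyte markers (Selplg, Itgal, Itgb2, Itga4), as a log2 difference per library, with the group mean as a line. Female sedentary pain lies above female controls for the 5 genes set against endothelial markers, and Itga4 lies below the controls in sedentary pain of both sexes.

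The RNA shares of the α chains that can pair with Itgb2 differed between libraries. Pairing of the proteins was not measured. Itgal, Itgam (the α chain of Mac-1 on neutrophils and monocytes), Itgax and Itgad all pair with Itgb2, and the share of Itgal in their summed counts per exon length was computed after the values had been seen. In female controls Itgal took 29.3% to 36.9% and in male controls 31.3% to 43.0%. Female sedentary pain replicates 1 and 2 had 14.3% and 11.1%, and replicates 3 and 4 had 42.7% and 33.9%. Replicates 1 and 2 were therefore below the female control range, replicate 4 was within it and replicate 3 above it. The exact 95% interval of female control replicate 2, 21.2% to 55.5%, includes the value of replicate 3. Female active pain had 13.2% to 22.7%, and male active pain 15.5% to 23.9%. Male sedentary pain replicates 1 to 4 had 11.3%, 28.4%, 29.5% and 20.4%. In all 12 libraries of female active pain and of the 2 male pain groups the Itgal share was below the controls of the same sex. The shares rest on few reads, 14 to 49 Itgal counts in a control library, and some gaps lie within counting error. The 29.5% of male sedentary pain replicate 3, from 38 Itgal counts, has an exact 95% interval of 21.5% to 38.7%, and the 31.3% of male control replicate 4, from 20, one of 19.9% to 45.01%. Itgam took 41.4% to 54.7% in female controls and 40.5% to 51.4% in male controls. It took 75.2% and 72.6% in female sedentary pain replicates 1 and 2 and 72.4% in male sedentary pain replicate 1. In active pain it reached 72.1% in each sex. The summed B cell markers followed the T and NK cell markers, with 7.64 and 11.9 CPM in female sedentary pain replicates 3 and 4 and at most 2.12 CPM in the other 22 libraries. Cd3e, a chain of the T cell receptor complex, had 5.44 and 11.9 CPM in those 2 libraries and at most 0.585 CPM elsewhere. The part of these cells in the Itgal values was not tested.

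**Figure D4:**
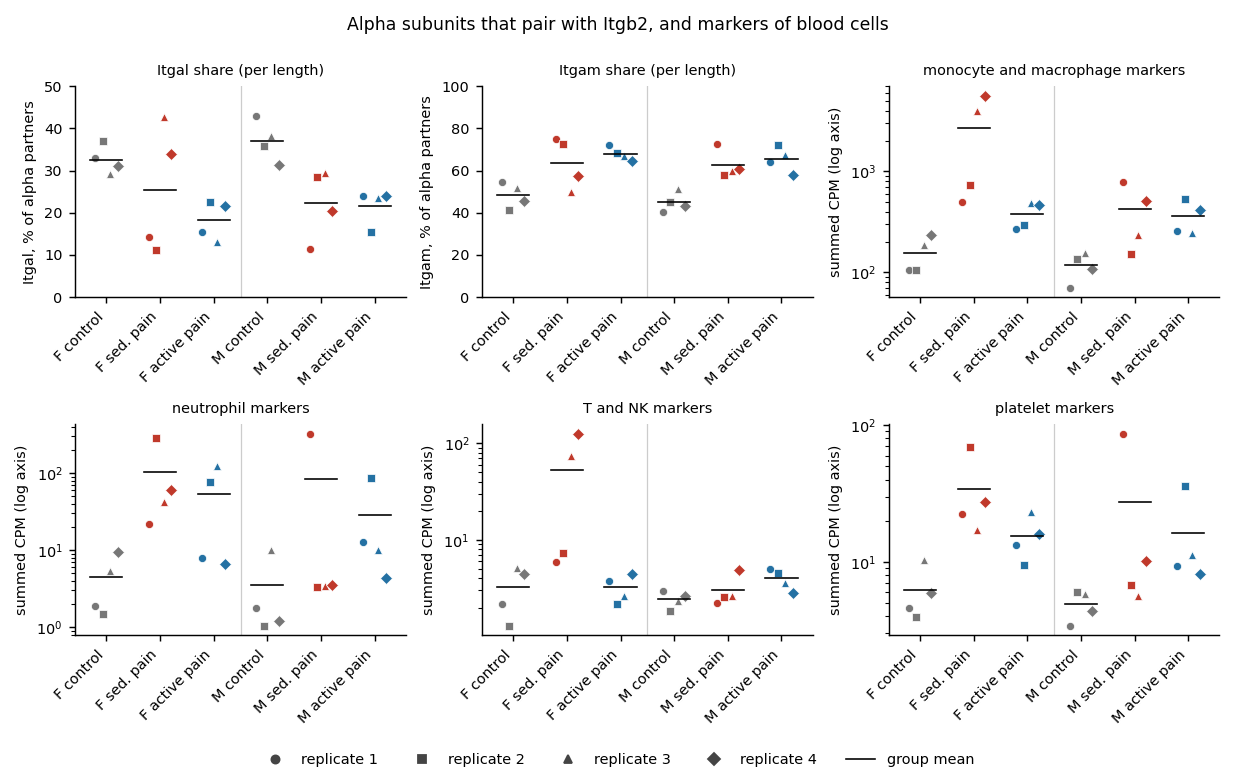
Share of Itgal and of Itgam among the α chains that pair with Itgb2, in % of counts per exon length, and summed CPM of monocyte and macrophage, neutrophil, T and NK cell and platelet markers on log axes, per library with the group mean as a line. Female sedentary pain replicates 3 and 4 (triangle and diamond) have the highest T and NK cell marker sums, 73.5 and 125 CPM.

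Other genes of the adhesion cascade were taken from 4 lists of 57 genes in all. In female sedentary pain against control, integrin activation had 11 higher and 1 lower of 13 tested (median log2 change 3.55, against -0.02 over all genes), beside 33.5% of all genes called (19.6% higher and 13.9% lower). The leukocyte markers moved with it, 10 of 10 higher with a median of 4.43, as did those of monocytes and macrophages, 10 of 11 higher with a median of 4.17, and their part in the list counts was not tested. The adhesion and marker lists share 4 genes. Coro1a and Lcp1 of integrin activation are also leukocyte markers, and Cdh5 and Pecam1 of the junction list are also endothelial markers. The selectin arm, which holds scaffolds and the enzymes that build selectin ligands, had 6 higher and 1 lower of 11 (0.56). Other integrin chains had 6 higher and 1 lower of 12 (0.88), and junction and transmigration genes 3 higher and 4 lower of 14 (0.03). Without female sedentary pain replicates 3 and 4, where 9.59% of all genes were called, integrin activation had 11 higher of 13 (median 2.39), the selectin arm 1 of 11, the integrin chains 3 of 12 and the junction list 1 of 14, with 0 lower in the 4 lists. The 4 rising genes with the smallest p were Itgam (5.03 ± 0.69), the adaptor Fyb (5.12 ± 0.76), the exchange factor Vav1 (4.85 ± 0.74) and the GTPase Rac2 (5.11 ± 0.78). All 4 also passed without replicates 3 and 4, at 4.07, 3.27, 3.81 and 3.51. Of the 7 falling genes, the 4 with the smallest p were the amine oxidase Aoc3 (-2.82 ± 0.72), the endothelial cadherin Cdh5 (-0.73 ± 0.20), the junction molecule Jam2 (-0.84 ± 0.24) and the sialyltransferase St3gal6 (-0.69 ± 0.22). None of the 4 passed without those libraries (-3.34, -0.56, -0.87 and -0.45, adjusted p from 0.0570 to 0.155). Both β partners of Itga4 rose, Itgb7 by 4.96 ± 0.86 and Itgb1 by 0.50 ± 0.12 (adjusted p = 0.00321 and 0.0106), and were named after their values were seen. Itgb7 had 1.14 to 2.26 CPM in female controls and 5.14, 20.5, 63.2 and 130 CPM in sedentary pain, and Itgb1 150 to 167 CPM and 229, 196, 250 and 240 CPM. Neither gene overlapped between the groups. Without replicates 3 and 4 Itgb7 was at 2.86 (adjusted p = 0.0183) and Itgb1 at 0.40, which did not pass (adjusted p = 0.0885).

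In female active pain against sedentary pain, 11 of the 13 integrin activation genes, 4 of the 12 integrin chains and 2 of the 11 selectin arm genes fell, beside 11.9% of all genes called (9.41% lower and 2.51% higher). The leukocyte and monocyte and macrophage markers fell with them, as given above. The junction list had 1 riser, the junction molecule Jam3 (0.80 ± 0.18), and 0 that fell. Those with the smallest p were the integrin activator Tln1 (-1.05 ± 0.20), Fyb (-3.30 ± 0.68), the kindlin Fermt3 (-3.05 ± 0.65) and Vav1 (-3.11 ± 0.66). The 18 calls of the 4 lists became 0 in edgeR without female active pain replicate 1, 2 or 4, without sedentary pain replicate 3 or 4 (22 to 27 at an unadjusted p under 0.05, share of all genes called not given here), and without sedentary pain replicates 3 and 4 together (18 unadjusted, beside 0% of all genes called). In the last of these Tln1 was at -0.71, Fyb at -1.45, Fermt3 at -1.60, Vav1 at -2.08 and Jam3 at 0.77. In the other 8 comparisons edgeR called 0 of the 49 or 50 list genes tested. At an unadjusted p under 0.05 there were up to 19 of them (of 49 in male sedentary pain against control, beside 8.84% of all genes), and DESeq2 called up to 7, in that same comparison (1.9%).

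The genes whose log2 CPM over the 24 libraries was most like that of each member were found by Pearson's r, as a description. All 24 libraries share the groups and the differences in blood cell markers given above. Selplg lay closest to Fcer1g (r = 0.993) and Coro1a (0.991), and Itgb2 to Ncf1 (0.992) and Itgam (0.992). Icam1 lay closest to Itgal itself (0.976) and to Pip4k2a (0.975), and Itgal to Actr3 (0.985) and Nuak2 (0.9802). Vcam1 lay closest to Cd2 (0.946), a surface protein of T and NK cells, and to Slamf9 (0.943). Selp was nearest to Stat3 (0.923) and C5ar1 (0.918), Icam2 to Lsm10 (0.935) and Dpysl2 (0.933), and Itga4 to Tgs1 (0.901) and Tyk2 (0.879). Sele had its highest values with Slfn4 (0.823) and Emp1 (0.820), at counts near 0. Among the members themselves, Selplg and Itgb2 had r = 0.983, whereas Itga4 had 0.331 with Selplg, 0.343 with Itgb2 and 0.613 with Vcam1. Over the 22 libraries without female sedentary pain replicates 3 and 4, Selplg and Itgb2 had 0.972, and Itga4 had -0.438, -0.424 and -0.340 with those 3 genes. The nearest genes of Vcam1 and Itga4 changed most, to 0.785 for Cd2 and 0.796 for Slamf9, and to 0.789 for Tgs1 and 0.582 for Tyk2.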

How the data were processed

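RNA of 24 left gastrocnemius muscles was sequenced by the authors from TruSeq stranded libraries made of 0.5 µg total RNA, as paired ends of 100 bases, per the labels' protocols. The deposited values are whole-number read counts per Ensembl gene, not normalized, for 54532 genes. HISAT2 2.1.0, Salmon 0.9.1, featureCounts, DESeq2 1.24.0 and the builds mm10 and GRCm38.p6 are named in the submitters' processing notes without roles; the annotation release and the strand setting are not given in the sources used here. Symbols were paired with 54409 genes, and positions from GENCODE M21 with 54495.

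From the counts, edgeR 4.0.16 (R 4.3.3) was run with TMM scaling, filterByExpr by group (minimum count 10) and robust quasi-likelihood F tests, two-sided, with Benjamini-Hochberg adjustment over all genes tested, within each sex for the 6 comparisons inside a sex and over 24 libraries (15103 genes) for the 4 between sexes. The steps were tested on simulated counts. CPM use TMM factors of all 24 libraries. Levels relative to markers (log2 CPM, prior count 2) were tested by exact permutation, two-sided. Other software was DESeq2 1.42.0, sva 3.50.0, Python 3.11.15, NumPy 2.4.6, pandas 2.3.3, SciPy 1.17.1 and matplotlib 3.10.9.

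All 9 members are described; of the pathway lists, up to 4 rising and 4 falling genes with the smallest p are named per comparison, and for each member the 2 genes of highest Pearson r. The members, lists and tests were chosen with earlier results of these data known. A gene of the selectin list is not reported here and was left out of its counts. Alternatives were RLE and upper quartile scaling, DESeq2, no robust step, no filter or a mean of at least 50 counts, a fit of the 2 groups alone, 1 fit of all 24 samples, a replicate block, the library-name number (at most 20 against at least 25), 1 surrogate variable, and each sample left out. Marker comparisons were repeated with a prior count of 0.5, RLE scaling, the median of the markers, pairing by number, and each sample left out.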

Additional observations from a re-analysis of the deposited data

Results flagged for a closer look

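In 7 of the 54 groups of 4 libraries examined (9 genes in 6 groups), 1 library lay so far above the other 3 that its gap to the nearest exceeded Dixon's critical share of the group's range; chance flags about 1 in 20 groups. Of the 7, 5 were male sedentary pain replicate 1: Selp had 6.055 CPM there against 1.773 in the next library, Icam2 7.993 against 4.813, Selplg 43.15 against 8.004, Itgal 6.66 against 1.71 and Itgb2 61.28 against 12.22. The same library had the highest summed neutrophil and platelet markers of all 24, 324 and 86.5 CPM. Pf4 alone gave 75.9 CPM of the platelet sum. Vcam1 had 4.839 CPM in male sedentary pain replicate 4, against 4.015 in the next. Itgb2 had 29.79 CPM in male active pain replicate 2, against 10.03, and that library had 85.8 CPM of neutrophil markers, against 4.31 to 12.8 CPM in the other 3 of its group. Whether the marker sums bear on these values was not tested. The 5 flags in 1 library are not independent, since these genes varied together.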

How the results depend on the processing

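No scaling moved the median log2 change of all genes by 0.1 or more, and the counts of genes past the threshold under RLE or upper quartile scaling, without the robust step, with a mean of at least 50 counts, with the library-name number as a covariate or with all 24 samples in 1 fit were within 1.5 times the values reported. DESeq2 called 1 gene in female active pain and 2 in male sedentary pain against control, in place of 0. For female active against sedentary pain the count of 6 became 0 with no filter on low counts, with only the 2 groups compared, with 1 surrogate variable, with replicates 1 and 2 only, and without female sedentary pain replicates 3 and 4. In the last of these fits 0% of all genes were called. Leaving out 1 library gave 0 to 8 for female active against sedentary pain, 5 to 8 for female sedentary pain against control, and 0 to 5 for the sex difference of active against sedentary pain. For female sedentary pain against control the count of 7 became 1 with 1 surrogate variable and 2 with replicates 1 and 2 only. With replicates 3 and 4 only, edgeR called a sex difference in 5 genes for sedentary pain against control and in 6 for active against sedentary pain. Without male sedentary pain replicate 1 and male active pain replicate 2, it called 4 for sedentary pain. The share of all genes called in these fits is not given here. The 33 adhesion list genes called in female sedentary pain against control became 16 without female sedentary pain replicates 3 and 4, beside 9.59% of all genes. The 18 for active against sedentary females became 0 there, beside 0% of all genes. Leaving out 1 library gave 21 to 36 and 0 to 27. These subsets of libraries were chosen after seeing the data, and the causes were not tested. The fits of replicates 1 and 2 only, and of replicates 3 and 4 only, each held 1 set of library-name numbers. Where no share of all genes called stands beside a member count, that count cannot be read as particular to these genes.

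Directions turned mainly for Icam2, Vcam1 and Itga4 (log2 change). With 1 surrogate variable, Icam2 was at -0.040 in female and -0.0091 in male sedentary pain against control and at 0.10 in female active against sedentary pain, Vcam1 at -0.11 in female active pain against control, and Itga4 at 0.034 in male sedentary pain. With replicates 1 and 2 only, Itga4 was at -0.37, -0.14 and 0.24 in female sedentary pain against control, female active pain against control and female active against sedentary pain, Vcam1 at -0.13 in female active pain, and the sex difference at -0.24 for Icam2 in sedentary pain and at 0.81 for Itga4 in active against sedentary pain. Without female sedentary pain replicates 3 and 4, Itga4 was at -0.055 in female sedentary pain and at 0.20 for active against sedentary females, and the sex differences were -0.043 (Icam2) and -0.15 (Vcam1) for sedentary pain and 0.33 (Itga4) for active against sedentary pain. Leaving out 1 library gave -0.039 to 0.18 for Vcam1 and -0.0010 to 0.39 for Itga4 in female active pain against control. Relative to leukocyte markers, the median of the markers put Selplg at -0.12 for sedentary and -0.10 for active females; leaving out 1 library gave Selplg -0.048 to 0.15 and -0.092 to 0.12 there and -0.28 to 0.066 in male sedentary pain, and Itgal -0.58 to 0.030 in female sedentary pain. In the 3 comparisons with small changes (male active against sedentary pain, the sex difference of active pain, and control males against females), no gene passed in any alternative.

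Replicate numbers recur across groups, and nothing in the labels says that they pair samples. Same-numbered libraries had residuals correlated at 0.103 on average in females (6 of 12 pairs above 0.1) and 0.0065 in males (3 of 12), and 3 of 12 libraries of each sex correlated best with their own number. With the replicate block, edgeR called 7 of 8 genes in female sedentary pain against control, and in females 6 for active against sedentary pain, with 0 elsewhere, the counts reported without it. Sele, at 0 to 9 counts per library, is limited by depth.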
